A study of Mus musculus with 6 samples.

Results

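The collagen gene family was examined in mouse liver, comparing 3 control libraries with 3 Atoh8 knockdown libraries; Atoh8 is a basic helix-loop-helix transcription factor. Members were all genes whose symbol in the deposited FPKM table has the form Col, a number, a and a number, such as Col1a1, and their gene identifiers linked them to the 6 count files. This gave 44 collagen genes of the 47729 genes counted. Every mouse was C57BL/6 and had eaten a diet with 0.1% DDC for 17 days, in both groups. DDC is a porphyrin-forming compound whose feeding injures bile ducts and hepatocytes and brings on scarring around the portal tracts. The series design names the controls shNC and the knockdown shAtoh8, whereas the sample titles and genotype call the controls WT. How the short hairpin RNA was delivered, which cells took it up, and the age of the mice are unstated in the sources used here, and no group on a normal diet is analysed here. The labels give hepatocyte as the cell type and liver as the source, and the RNA came from whole frozen livers, so the libraries hold RNA of all liver cells. No label states that replicates came from different mice, so each p-value measures only the spread between samples, which may be technical.

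Collagens are triple-helical proteins of the extracellular matrix, each built from 3 chains. Fibrillar collagens such as types I, III and V assemble into the fibrils of scar tissue, type IV forms the sheet-like network of basement membranes, and type VI forms beaded filaments between fibrils and cells. FACIT collagens sit on the surface of fibrils, multiplexins combine interrupted collagen stretches with glycosaminoglycan chains, and transmembrane collagens stay in the cell membrane. In the injured liver, fibrillar collagens come mainly from activated stellate cells and portal fibroblasts, whereas Col18a1, whose protein holds the endostatin fragment, is made by hepatocytes too. Because each library is bulk RNA, fewer cells of a type and less RNA per cell cannot be told apart in any of the results.

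Reads in genes came to between 31912058 and 37969644 a library. Levels of 1 gene across libraries are given in CPM, read counts relative to library size after TMM scaling, which corrects for differences in composition. Different genes are compared in FPKM, which also divides by transcript length. Ratios between collagen chains are given in reads as well, which are not divided by length. Atoh8 itself had 63.8, 16.8 and 16.4 CPM in the controls (replicates 1, 2 and 3, the order used throughout) against 10.2, 9.83 and 5.64 CPM after knockdown. Every knockdown library was below every control, but control replicate 1 lay far above the other controls, and the edgeR quasi-likelihood test put the log2 fold change at -1.92 (SE 0.58, adjusted p = 0.197). Without control replicate 1 it was -0.95 (SE 0.23, adjusted p = 0.0115). Control replicate 1 stood apart as a whole: its log2 levels over all tested genes correlated at 0.916 and 0.907 with the other controls, which correlated at 0.984 with each other. With knockdown replicates 1, 2 and 3 control replicate 1 correlated at 0.939, 0.947 and 0.922, higher than with the other controls. The tests of the collagens are therefore given with all 6 libraries and without that library. Leaving it out was chosen with its values known.

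Of the 44 collagen genes, 23 had enough reads to be tested. With all 6 libraries, no collagen passed the edgeR test at an adjusted p under 0.05, where 0.741% of the 13767 genes tested passed as higher and 0.123% as lower in the knockdown. At an unadjusted p under 0.05, 13 of the 23 were higher and 1 was lower, against 9.14% and 5.4% of all genes. DESeq2 on the same 6 libraries called 7 of 30 tested collagens higher and 0 lower, against 3.73% and 1.4% of all genes. They were Col1a1, Col1a2, Col3a1, Col5a1, Col5a2, Col6a3 and Col6a6, of which Col6a6 had 5 reads in the controls together. An edgeR fit with an offset for GC content and gene length called 4 of 23 higher (Col1a2, Col3a1, Col5a2 and Col6a6), against 2.57% of all genes (and 0 lower, against 0.843%). A fit without the filter on low counts called 2 of 37 (Col3a1 and Col5a2), against 0.928% (and 0 lower, against 0.148%). Limma called 0 of 19 collagens on log2(FPKM + 1), against 0.871% of all genes higher and 0.22% lower, and 0 of 19 on log2(FPKM + 0.1), against 0.554% and 0.171%. Without a filter on low FPKM limma called 0 of 37 as well, against 0.194% and 0.034%.

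Most tested members had the same direction. In 12 of the 23 tested collagens every knockdown library was above every control in CPM, against 13% of all genes tested. Col6a6, which reached the test only through its knockdown libraries, is among the 12, as is Col12a1, whose groups overlapped in FPKM. In 2, Col20a1 and Col13a1, every knockdown library was below in CPM, against 10%, but the groups of Col13a1 overlapped in FPKM. Knockdown minus control, the log2 fold change was positive in 18 and negative in 5, where 45.3% of all genes were positive. Its median was 0.80 over the 23 collagens and -0.05 over all genes tested. By class, the median was 1.38 over the 8 tested fibrillar chains, 1.34 over the 4 tested beaded-filament chains, 0.84 over the 4 tested basement membrane chains, 0.66 over the 4 tested FACIT chains and 0.09 over the 2 multiplexins. These class medians were, without control replicate 1, 1.91, 1.79, 1.11, 0.80 and 0.19. The beaded-filament median included Col6a6, and over the other 3 chains it was 0.84 with all libraries and 1.09 without control replicate 1. Over the 22 other collagens tested, the family median was 0.76 with all libraries.

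Without control replicate 1, the edgeR test called 15 of 25 tested collagens higher and 2 lower in the knockdown, in a fit that called 16.5% of all genes higher and 16.1% lower. The 15 were 5 fibrillar, 3 basement membrane, 4 beaded-filament and 3 FACIT chains, and the 2 were the fibrillar chain Col27a1 and the FACIT chain Col20a1. Of all genes, 50.8% had a positive fold change in that fit, and of the 25 collagens 20 had. The median log2 fold change was then 0.96 over the collagens and 0.01 over all genes. Col6a6, and Col8a1, which was not tested with all libraries, reached this fit only through the knockdown libraries. Without Col6a6, 14 of 24 collagens were called higher and 2 lower, 19 had a positive fold change, and the median was 0.94. With the GC and length offset, Col6a2 and Col16a1 were no longer called and the count was 13 higher and 2 lower, against 16.6% and 12.3% of all genes. DESeq2 without control replicate 1 called the same 15 and 2, against 16.8% and 15.7% of all genes. Leaving out any other single library called 0 collagens. Of all genes, 0.141% were then called higher and 0.00707% lower without control replicate 3, 0.0707% higher and 0% lower without knockdown replicate 2, and 0% without each of the other 3.

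**Figure D1:**
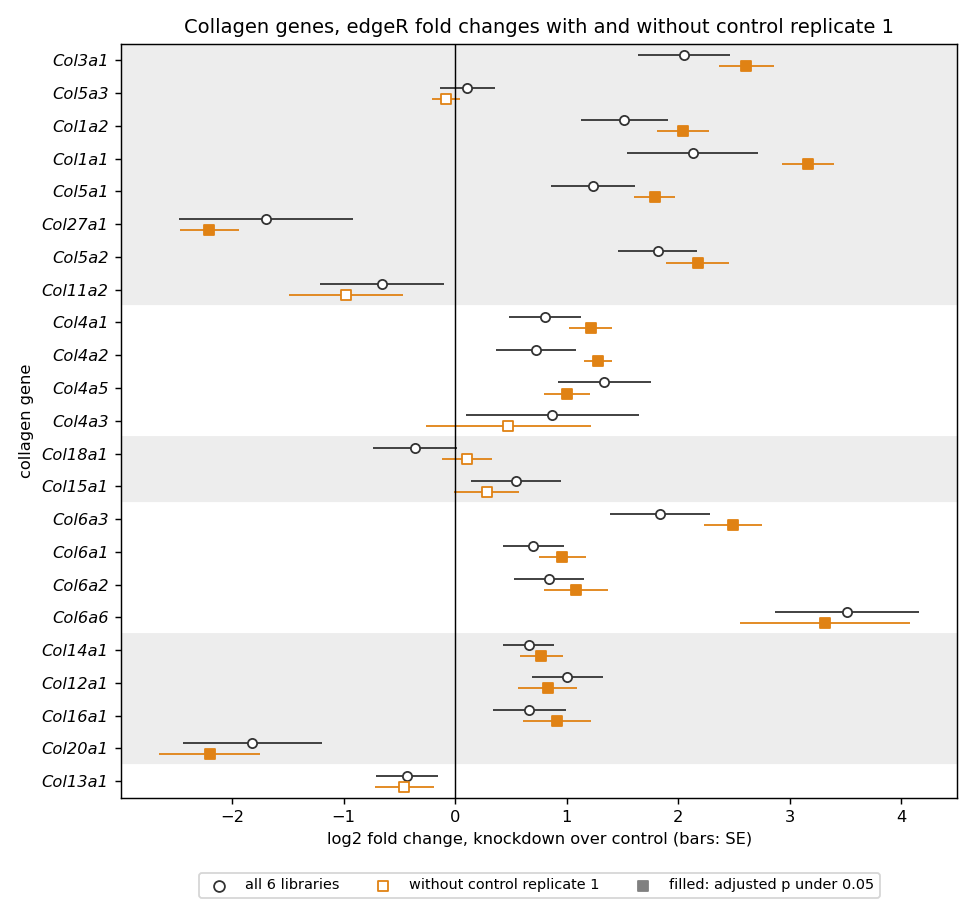
Log2 fold change, knockdown minus control, of each tested collagen gene (rows, grouped by class) with all 6 libraries and without control replicate 1, with filled symbols where the adjusted p is under 0.05; bars are standard errors of the edgeR fit. Most fibrillar, basement membrane and beaded-filament chains lie to the right of 0, and Col27a1 and Col20a1 lie to the left, at -1.70 and -1.82 with all libraries.

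Type I and type III collagen are the main fibrils of liver scars, and their 3 chain genes were among the 6 tested collagens with the largest positive differences. Col1a1 (ENSMUSG00000001506, GRCm38 chr11:94936224-94953042, plus strand), the alpha 1 chain of type I, stood at 12.7, 3.27 and 2.96 CPM in the controls and 32.7, 20.5 and 29.6 CPM in the knockdown. Control replicate 1 lay between the other controls and the knockdown libraries, and the groups did not overlap. On the log2 scale Col1a1 differed by 2.13 (SE 0.58, edgeR adjusted p = 0.163) with all libraries and 3.16 (SE 0.24, edgeR adjusted p = 0.000102) without control replicate 1.

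Col1a2 (ENSMUSG00000029661, chr6:4504814-4541544, plus strand), the alpha 2 chain of type I, stood at 17.4, 8.20 and 7.18 CPM in the controls and 32.2, 22.8 and 38.9 CPM in the knockdown. Again control replicate 1 was the highest control and still below every knockdown library. In the edgeR fit the log2 difference of Col1a2 was 1.52 (SE 0.39, edgeR adjusted p = 0.149) with all libraries and 2.04 (SE 0.23, edgeR adjusted p = 0.000358) without control replicate 1. Col3a1 (ENSMUSG00000026043, chr1:45311538-45349706, plus strand), the only chain of type III collagen, stood at 37.3, 14.5 and 17.1 CPM in the controls and 95.6, 67.9 and 123 CPM in the knockdown. Each knockdown library was above all controls. By edgeR, the difference of Col3a1 in log2 was 2.05 (SE 0.41, edgeR adjusted p = 0.0801), and 2.61 (SE 0.25, edgeR adjusted p = 0.00021) without control replicate 1.

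**Figure D2:**
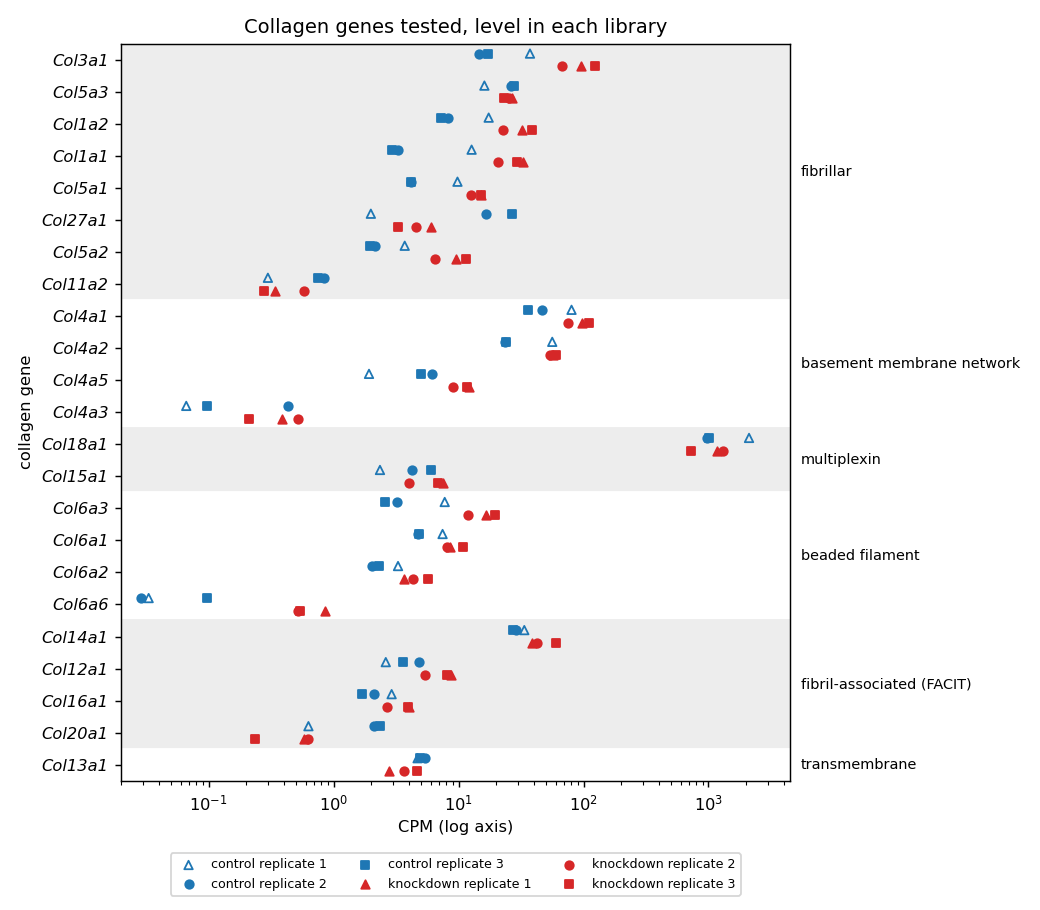
CPM on a log axis of each tested collagen gene in every library, grouped by class, with 1 symbol per library (open symbols for control replicate 1). For Col1a1, Col1a2 and Col3a1 the 3 knockdown libraries lie above all controls, whereas for Col27a1 control replicate 1 is the lowest library and the other controls are the highest.

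Stretches before a RefSeq start of 5 members are shown to set side by side 3 members that were higher in the knockdown (Col3a1, Col1a2 and Col6a3), 1 that was lower without control replicate 1 (Col27a1), and the most abundant (Col18a1). They come from the RefSeq promoter table (GRCm38.p6), which runs from 250 bases before to 50 after each start, cut to the longest stretch before the start that holds no annotated exon. For Col1a2 and Col27a1 this stretch lies inside the gene's span given here from the GENCODE annotation, which begins before the RefSeq start. The sequences are printed 5′ to 3′ on the strand of the gene, and capitals mark the motifs searched, in either orientation.
Col3a1, chr1:45311288-45311537, plus strand: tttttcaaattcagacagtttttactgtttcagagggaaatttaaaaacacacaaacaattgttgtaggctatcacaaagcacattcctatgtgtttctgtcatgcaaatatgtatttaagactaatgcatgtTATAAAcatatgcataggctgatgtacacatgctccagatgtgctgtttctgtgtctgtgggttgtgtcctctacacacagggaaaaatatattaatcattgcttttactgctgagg
Col1a2, chr6:4505370-4505492, plus strand: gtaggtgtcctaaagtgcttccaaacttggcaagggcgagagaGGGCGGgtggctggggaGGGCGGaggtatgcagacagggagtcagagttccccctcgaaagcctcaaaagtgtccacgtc
Col6a3, chr1:90843972-90844221, minus strand: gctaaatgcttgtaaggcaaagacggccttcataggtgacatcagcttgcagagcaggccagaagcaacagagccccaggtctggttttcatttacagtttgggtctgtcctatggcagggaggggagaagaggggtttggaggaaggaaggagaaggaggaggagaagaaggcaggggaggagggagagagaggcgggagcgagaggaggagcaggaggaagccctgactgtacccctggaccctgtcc
Col27a1, chr4:63215162-63215411, plus strand: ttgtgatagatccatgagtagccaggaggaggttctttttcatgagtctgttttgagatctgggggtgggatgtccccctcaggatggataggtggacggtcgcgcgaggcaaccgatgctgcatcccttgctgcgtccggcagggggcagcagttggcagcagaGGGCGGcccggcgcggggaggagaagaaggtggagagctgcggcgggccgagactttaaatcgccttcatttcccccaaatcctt
Col18a1, chr10:77166549-77166780, minus strand: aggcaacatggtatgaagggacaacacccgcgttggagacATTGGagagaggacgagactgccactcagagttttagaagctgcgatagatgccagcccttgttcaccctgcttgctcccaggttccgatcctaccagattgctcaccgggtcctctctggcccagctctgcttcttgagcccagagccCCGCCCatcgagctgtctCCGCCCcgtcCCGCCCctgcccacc
The table held 35 of the 44 members, with 38 windows of 300 bases. The 4 motifs below were searched on both strands, and none of the marked ones overlapped another. CCAAT, a box of many promoters, was in 13 of the 38 collagen windows and in 37.4% of all 32851 windows of that length. GGGCGG, the GC box, was in 23 collagen windows and 35.7% of all. TATAAA, the TATA box, was in 5 collagen windows and 13.6% of all. The E-box form CAGCTG was in 7 collagen windows and 16.3% of all. Col3a1 holds a TATAAA 117 bases before its start, Col1a2 holds GGGCGG 188 and 205 bases before its start, and Col6a3 holds none of the 4 in the stretch shown. Col27a1 holds GGGCGG 85 bases before its start. The upstream start of Col18a1, which has 2 starts in the table, holds GGGCGG 33, 43 and 61 bases and CCAAT 210 bases before it. A match describes these letters only, and the gene-level counts do not say which start of Col18a1 was used.

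Type V collagen is a minor fibrillar type that is built into type I fibrils. Col5a1 (alpha 1 chain) stood at 9.80, 4.16 and 4.16 CPM in the controls and 15, 12.5 and 15.1 CPM in the knockdown. Its log2 fold change was 1.24 (SE 0.38, edgeR adjusted p = 0.198), and 1.79 (SE 0.18, edgeR adjusted p = 0.000233) without control replicate 1. Col5a2 (alpha 2 chain, chr1:45374321-45503282, minus strand), which lies tail to tail with Col3a1 at a distance of 24614 bases, stood at 3.71, 2.15 and 1.95 CPM in the controls and 9.55, 6.53 and 11.4 CPM in the knockdown. In both genes the groups did not overlap. For Col5a2 the log2 fold change was 1.82 (SE 0.36, edgeR adjusted p = 0.0744), and 2.18 (SE 0.28, edgeR adjusted p = 0.000627) without control replicate 1.

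Col5a3, the third chain of type V, was different in pattern: 16.1, 26.1 and 27.6 CPM in the controls and 26.7, 25.2 and 23.3 CPM in the knockdown. Control replicate 1 was the lowest library and the other 5 lay close together. On the log2 scale Col5a3 differed by 0.11 (SE 0.25, edgeR adjusted p = 0.876), and -0.08 (SE 0.13, edgeR adjusted p = 0.657) without control replicate 1, so its sign depended on that library. Col11a2, a chain of the cartilage-type collagen XI, was at 0.28 to 0.83 CPM in the 6 libraries and did not pass in either fit.

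Col27a1 (ENSMUSG00000045672, chr4:63214004-63334991, plus strand), a fibrillar chain with a long amino-terminal part, ran the other way in the knockdown. It stood at 1.99, 16.5 and 26.5 CPM in the controls and 6.01, 4.6 and 3.26 CPM in the knockdown. Control replicate 1 was the lowest of all 6 libraries, and the other controls were above every knockdown library, so the groups overlapped only through control replicate 1. In the edgeR fit the log2 difference of Col27a1 was -1.70 (SE 0.78, edgeR adjusted p = 0.378) with all libraries. Without control replicate 1 it fell by 2.21 (SE 0.26, edgeR adjusted p = 0.000406) on the log2 scale.

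Type IV chains form the basement membrane. Col4a1 (chr8:11198423-11312826, minus strand) and Col4a2 (chr8:11312805-11449287, plus strand) lie head to head and their annotated spans overlap by 22 bases. Col4a1 stood at 80.2, 46.7 and 35.7 CPM in the controls and 97.7, 75.2 and 111 CPM in the knockdown. Control replicate 1 lay above knockdown replicate 2, so the groups overlapped. For Col4a1 the log2 fold change was 0.80 (SE 0.32, edgeR adjusted p = 0.317), and 1.22 (SE 0.19, edgeR adjusted p = 0.00157) without control replicate 1. Col4a2 stood at 56.2, 23.5 and 24.2 CPM in the controls and 57.0, 54.2 and 60.4 CPM in the knockdown. Control replicate 1 lay among the knockdown libraries, far above the other controls. For Col4a2 it was 0.73 (SE 0.36, edgeR adjusted p = 0.412), and 1.28 (SE 0.13, edgeR adjusted p = 0.000224) without control replicate 1.

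Col4a5, a chain of the alpha 3, alpha 4 and alpha 5 network, was the type IV chain whose groups did not overlap, at 1.92, 6.13 and 4.97 CPM in the controls and 12.1, 9.09 and 11.8 CPM in the knockdown. Here control replicate 1 was the lowest control. Its log2 fold change was 1.34 (SE 0.42, edgeR adjusted p = 0.208), and 1.00 (SE 0.21, edgeR adjusted p = 0.00552) without control replicate 1. Its partner chains were sparse: Col4a3 was at 0.07 to 0.52 CPM and did not pass in either fit, and Col4a4 and Col4a6 had 29 and 6 reads in all 6 libraries together. Col4a3 and Col4a4 lie head to head 71 bases apart, and Col4a5 and Col4a6 head to head 1308 bases apart.

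The multiplexins of basement membrane zones did not pass in either fit. Col18a1 (ENSMUSG00000001435, chr10:77052178-77166548, minus strand) was by far the most abundant member per length, at 421, 198 and 195 FPKM in the controls and 236, 264 and 161 FPKM in the knockdown. In CPM it stood at 2111, 980 and 1012 in the controls against 1161, 1310 and 727 after knockdown, from 31158 to 63740 reads a library. Control replicate 1 was the highest library, and the other 5 overlapped. The log2 fold change of Col18a1 was -0.36 (SE 0.37, edgeR adjusted p = 0.714), and 0.11 (SE 0.23, edgeR adjusted p = 0.746) without control replicate 1. With the GC and length offset it was -0.10 without that library, so its sign varied with the fit. Its span overlaps Slc19a1 on the opposite strand by 8825 bases, and that gene had 3470 reads in all libraries together. The sources used here do not say whether counting used the strand, so reads of the shared stretch cannot be told apart.

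Col15a1, the other multiplexin, stood at 2.35, 4.21 and 5.98 CPM in the controls and 7.49, 4.0 and 6.83 CPM in the knockdown. The groups overlapped, and the log2 fold change was 0.55 (SE 0.41, edgeR adjusted p = 0.603), or 0.28 (SE 0.30, edgeR adjusted p = 0.503) without control replicate 1. The deposited scales ranked its libraries differently, since control replicate 2 had 147 reads and an FPKM of 1.93 whereas control replicate 3 had 184 reads and an FPKM of 1.09.

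Type VI collagen, the beaded filament, had 4 tested chains, and in all 4 the groups did not overlap. Col6a3, the largest chain, differed most among the abundant ones (chr1:90765923-90843971, minus strand): it stood at 7.75, 3.21 and 2.57 CPM in the controls and 16.6, 11.9 and 19.7 CPM in the knockdown. The groups of Col6a3 differed by 1.84 in log2 (SE 0.45, edgeR adjusted p = 0.135), and 2.49 (SE 0.26, edgeR adjusted p = 0.000238) without control replicate 1. Col6a1 stood at 7.45, 4.76 and 4.81 CPM in the controls and 8.61, 8.10 and 10.9 CPM in the knockdown. Col6a2, its partner in the assembled protein, stood at 3.28, 2.04 and 2.31 CPM in the controls and 3.64, 4.29 and 5.73 CPM in the knockdown. In both, control replicate 1 was the highest control and lay just below the lowest knockdown library. Their log2 fold changes were 0.70 and 0.84 (edgeR adjusted p = 0.303 and 0.284), and 0.96 and 1.09 (edgeR adjusted p = 0.00712 and 0.0168) without control replicate 1.

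Col6a6, an alternative chain to Col6a3, had few reads: 1, 1 and 3 in the controls against 35, 20 and 23 after knockdown. It reached the test only through the knockdown libraries. The ratio of scaled reads, 78 against 5 in total, was 12.2 with a 95% counting interval of 5.02 to 38.7, which covers counting error only. The fitted log2 fold change of Col6a6, which depends on the prior count, was 3.52 (SE 0.65, edgeR adjusted p = 0.0634), and 3.32 (SE 0.76, edgeR adjusted p = 0.00904) without control replicate 1.

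Among FACIT collagens, Col14a1 and Col12a1, which decorate type I fibrils, had non-overlapping groups in CPM. Col14a1 stood at 33.6, 28.6 and 27.1 CPM in the controls and 38.7, 42.2 and 60.1 CPM in the knockdown. Col12a1 stood at 2.62, 4.82 and 3.57 CPM in the controls and 8.65, 5.41 and 8.06 CPM in the knockdown. In FPKM the groups of Col12a1 overlapped, with control replicate 2 at 0.829 and knockdown replicate 2 at 0.803. In Col14a1 control replicate 1 was the highest control, and in Col12a1 it was the lowest. Their log2 fold changes were 0.66 and 1.01 (edgeR adjusted p = 0.251 and 0.216), and 0.77 and 0.83 (edgeR adjusted p = 0.0128 and 0.0359) without control replicate 1. Col16a1 stood at 2.91, 2.12 and 1.69 CPM in the controls and 4.05, 2.69 and 3.92 CPM in the knockdown, and its groups overlapped through control replicate 1. On the log2 scale Col16a1 differed by 0.66 (edgeR adjusted p = 0.414), and 0.91 (edgeR adjusted p = 0.0422) without control replicate 1.

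Col20a1, a further FACIT chain, was lower: 0.63, 2.09 and 2.37 CPM in the controls and 0.58, 0.63 and 0.23 CPM in the knockdown, from 10 to 73 reads a library. Control replicate 1 lay next to knockdown replicates 1 and 2, so that the lack of overlap rested on a very small gap. Its log2 fold change was -1.82 (SE 0.62, edgeR adjusted p = 0.243), and -2.20 (SE 0.45, edgeR adjusted p = 0.00528) without control replicate 1. Its span overlaps BX649560.1 on the same strand by 741 bases, and that gene had 468 reads, so its counts are uncertain. Col13a1, the 1 tested transmembrane collagen at 1 CPM or more, stood at 4.70, 5.39 and 4.87 CPM in the controls and 2.79, 3.66 and 4.64 CPM in the knockdown. In CPM the groups did not overlap, with a small gap at knockdown replicate 3. They overlapped in FPKM, with knockdown replicate 3 at 1.56 and control replicate 1 at 1.42. The log2 fold change of Col13a1 was -0.43 (edgeR adjusted p = 0.534), or -0.46 (edgeR adjusted p = 0.214) without control replicate 1.

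The other 21 members were absent or too sparse to test with all libraries. No read was counted in any library for 7: the cartilage chains Col2a1 and Col11a1, and Col6a5, Col8a2, Col19a1, Col26a1 and Col28a1. With 3 reads as the limit that a count of 0 allows, this leaves levels up to 0.0699 to 0.0994 CPM a library. A further 14 had between 2 and 51 reads over the 6 libraries together, with a mean of at most 0.232 CPM. They were Col4a4, Col4a6, Col6a4, Col7a1, Col8a1, Col9a1, Col9a2, Col9a3, Col10a1, Col17a1, Col22a1, Col23a1, Col24a1 and Col25a1. Col8a1, a short-chain network collagen chosen after its values were seen, had 0, 1 and 5 reads in the controls against 14, 3 and 26 after knockdown. The ratio of scaled reads was 5.61 with a 95% counting interval of 2.38 to 16.1. Control replicate 3 lay above knockdown replicate 2. Without control replicate 1 Col8a1 reached the test only through the knockdown libraries, and its log2 fold change was 1.88 (edgeR adjusted p = 0.188).

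Per length, 1 gene held most of the collagen mRNA. Col18a1 made up 89.1%, 84.2% and 83.5% of the summed collagen FPKM in the controls against 73.8%, 79.5% and 59.7% in the knockdown. The knockdown shares were all below the control shares. The sum over the family was 472, 236 and 234 FPKM in the controls against 320, 333 and 269 FPKM in the knockdown, and these overlapped. Without Col18a1 the sum was 51.4, 37.3 and 38.6 FPKM in the controls against 83.8, 68.3 and 108 FPKM in the knockdown, a mean of 42.4 ± 7.80 (SD, n = 3) against 86.8 ± 20.2 (SD, n = 3) with no overlap.

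By class, the summed FPKM of fibrillar chains was 18.7, 13.1 and 17.4 in the controls against 41.7, 29.8 and 55.0 in the knockdown. Basement membrane chains summed to 19.4, 11.3 and 9.46 FPKM in the controls against 25.0, 20.3 and 28.3 FPKM in the knockdown. Beaded-filament chains summed to 3.46, 2.07 and 2.23 FPKM in the controls against 5.30, 4.97 and 6.96 FPKM in the knockdown. In all 3 classes every knockdown library was above every control. Col1a1, Col1a2 and Col3a1 together made up 27.1%, 15.2% and 18.6% of the sum without Col18a1 in the controls against 39.5%, 31.6% and 43.2% in the knockdown. Col27a1 made up 0.583%, 5.92% and 11.2% of it in the controls against 1.06%, 1.10% and 0.572% in the knockdown, with control replicate 1 among the knockdown libraries. Ranked by mean FPKM, Col3a1 was 4th in the controls and 2nd in the knockdown, Col1a1 12th and 7th, and Col27a1 8th and 19th, while Col18a1 was 1st in both.

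**Figure D3:**
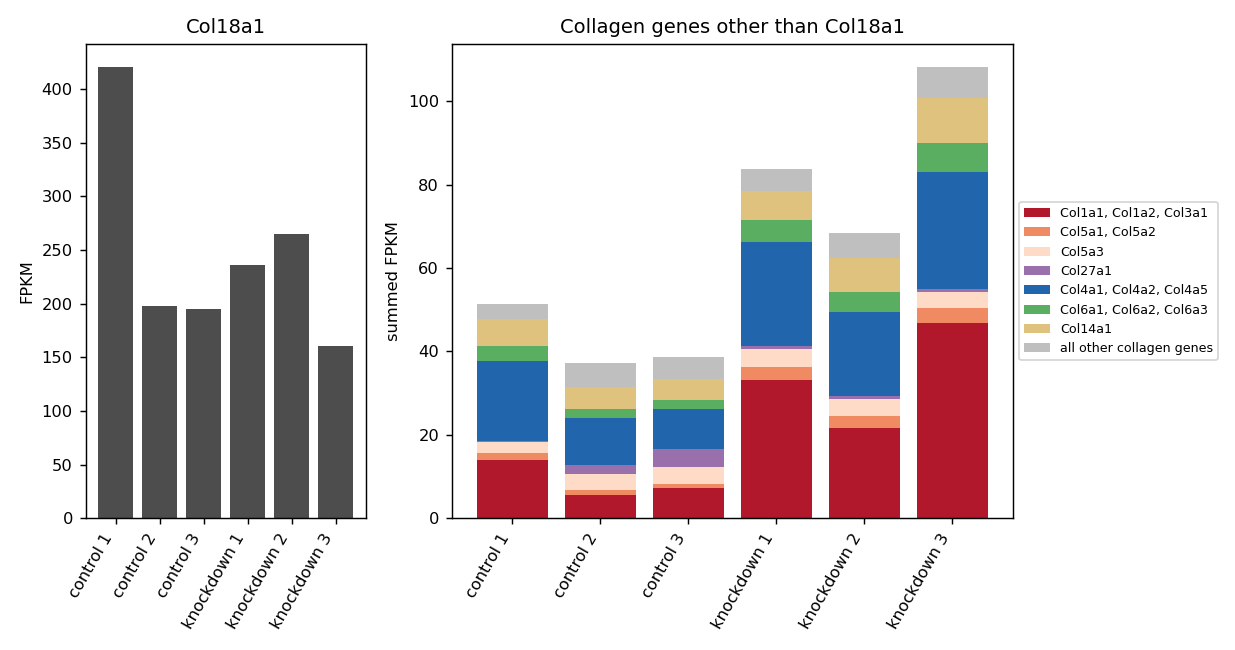
Deposited FPKM in each library, 1 bar per library: Col18a1 at left, and at right the sum over all other collagen genes, stacked by gene group. The right-hand bars reach 37.3 to 51.4 FPKM in the controls against 68.3 to 108 FPKM after knockdown, and the Col27a1 segment is visible mainly in control replicates 2 and 3.

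Ratios between chains of 1 collagen type, and of Col3a1 to Col1a2, were compared within libraries, which removes library scaling. The pairs were chosen with the levels known. With 3 libraries against 3, the smallest p of an exact two-sided permutation test is 0.1, or 0.2 after Benjamini-Hochberg adjustment over the 12 ratios computed, so no ratio could pass. In type I collagen, whose usual form has more alpha 1 than alpha 2 chains, the Col1a1 to Col1a2 ratio in reads was 0.730, 0.399 and 0.412 in the controls against 1.02, 0.902 and 0.761 in the knockdown. Every knockdown library was above every control (exact permutation p = 0.1), although the 95% counting intervals of control replicate 1, 0.638 to 0.834, and knockdown replicate 3, 0.707 to 0.819, overlapped. In FPKM the same ratio was 0.543, 0.352 and 0.379 in the controls against 0.801, 0.766 and 0.649 in the knockdown. The Col6a3 to Col6a1 ratio in reads was 1.04, 0.675 and 0.534 in the controls against 1.94, 1.47 and 1.81 in the knockdown, also without overlap on either scale (exact permutation p = 0.1).

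The Col3a1 to Col1a2 ratio was without overlap in reads, at 2.14, 1.77 and 2.39 against 2.97, 2.98 and 3.17, but overlapped in FPKM (exact permutation p = 0.3). The Col5a1 to Col5a2 ratio was lower in the knockdown in reads, at 2.64, 1.93 and 2.13 against 1.57, 1.92 and 1.33, with a very small gap and an overlap in FPKM (exact permutation p = 1). The Col4a1 to Col4a2 and Col6a1 to Col6a2 ratios overlapped on both scales.

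**Figure D4:**
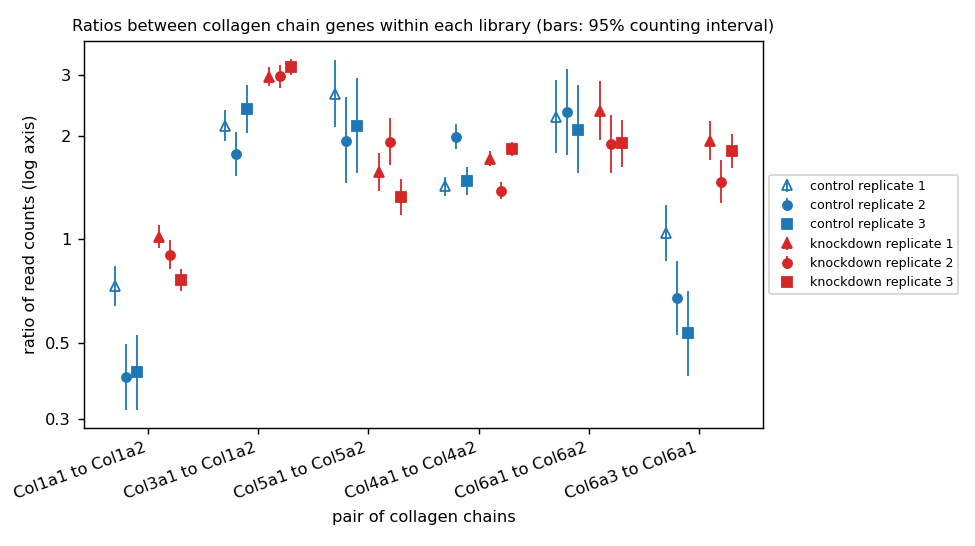
Ratio of read counts between pairs of collagen chains on a log axis, 1 symbol per library, with 95% counting intervals as bars. The Col1a1 to Col1a2 ratio is 0.399 to 0.730 in the controls against 0.761 to 1.02 in the knockdown.

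Collagen chains pass through hydroxylation, folding, export, trimming and cross-linking, and the genes of these steps were read from 6 lists of 71 genes in all, of which 61 were tested. With all 6 libraries edgeR called 0 of them, against the same 0.741% and 0.123% of all genes, and 19 were higher and 1 lower at an unadjusted p under 0.05, against 9.14% and 5.4%. DESeq2 called 10 higher and 1 lower, against 3.73% and 1.4%. Without control replicate 1, edgeR called 27 of 63 higher and 8 lower, against 16.5% and 16.1% of all genes.

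Of the 14 tested hydroxylases and glycosyltransferases, which modify the chains in the endoplasmic reticulum, 0 were called higher and 2 lower without control replicate 1, against 16.5% and 16.1% of all genes. P4ha2, an alpha subunit of prolyl 4-hydroxylase, stood at 14.8, 16.2 and 18.3 CPM in the controls and 7.97, 7.53 and 8.02 CPM in the knockdown. All 3 controls, control replicate 1 included, were well above the knockdown libraries. The log2 fold change of P4ha2 was -1.07 (SE 0.20, edgeR adjusted p = 0.0641), and -1.12 (SE 0.15, edgeR adjusted p = 0.000753) without control replicate 1. P4ha1, the other main alpha subunit, stood at 7.09, 15.5 and 22.4 CPM in the controls and 7.78, 10.2 and 10.6 CPM in the knockdown, with control replicate 1 the lowest library. On the log2 scale P4ha1 differed by -0.66 (edgeR adjusted p = 0.523), and -0.98 (edgeR adjusted p = 0.00556) without control replicate 1. Plod2 and Crtap did not pass in either fit.

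Among the 8 chaperones and export factors, 2 were called higher and 4 lower without control replicate 1, against 16.5% and 16.1% of all genes. Serpinh1, the collagen chaperone HSP47, stood at 4.37, 4.87 and 4.42 CPM in the controls and 7.88, 7.87 and 11.3 CPM in the knockdown. Here control replicate 1 lay with the other controls, and the log2 fold change was 0.99 (SE 0.25, edgeR adjusted p = 0.138), or 0.97 (SE 0.23, edgeR adjusted p = 0.0106) without it. Creb3l1, a transcription factor of collagen secretion, was at 0.32 to 0.46 CPM in the controls and 1.26 to 1.66 CPM in the knockdown, and differed by 1.90 in log2 (SE 0.39, edgeR adjusted p = 0.0815), or 1.89 (SE 0.45, edgeR adjusted p = 0.0104) without control replicate 1. The 4 lower genes were Tmem38b, Mia2, Ctage5 and Mia3, and in all 4 the groups overlapped with control replicate 1 included. Mia2 and Ctage5 share a locus, so their counts are uncertain.

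Trimming and cross-linking enzymes come next: of 11 tested without control replicate 1, 7 were called higher and 0 lower, against 16.5% and 16.1% of all genes. The 7 include Lox, which was not tested with all libraries and had 0 and 1 reads in the remaining controls. Without Lox, 6 of 10 were called higher. The 6 include Loxl1, with 59, 7 and 4 reads in the controls, which in both fits reached the test only through the knockdown libraries. In control replicate 1 Loxl1 stood at 1.95 CPM, above knockdown replicates 1 and 2 at 1.62 and 1.385 CPM. Loxl4, a lysyl oxidase that cross-links fibrils, stood at 0.93, 1.09 and 1.53 CPM in the controls and 6.52, 3.32 and 4.73 CPM in the knockdown. Control replicate 1 was the lowest library, and the log2 fold change was 2.04 (SE 0.37, edgeR adjusted p = 0.0613), or 1.91 (SE 0.35, edgeR adjusted p = 0.00328) without it. Pcolce, which speeds removal of the carboxy-terminal propeptide, stood at 5.99, 4.04 and 4.19 CPM in the controls and 13.3, 10.1 and 10.4 CPM in the knockdown. On the log2 scale Pcolce differed by 1.25 (SE 0.26, edgeR adjusted p = 0.0845), and 1.47 (SE 0.20, edgeR adjusted p = 0.000793) without control replicate 1. Loxl2 and Tgm2 had non-overlapping groups too, with log2 fold changes of 1.47 and 0.75 (edgeR adjusted p = 0.149 and 0.172). Without control replicate 1 these were 1.90 and 0.92 (edgeR adjusted p = 0.00113 and 0.0021). Lox, chosen after its values were seen, had 1 read in the controls together and 89 in the knockdown, a ratio of 69.7 with a 95% counting interval of 12.2 to 2783.

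Of 11 tested fibril-binding matrix proteins, 8 were called higher and 1, Postn, lower without control replicate 1, against 16.5% and 16.1% of all genes. Sparc, a collagen-binding protein, stood at 48.7, 37.9 and 32 CPM in the controls and 62.9, 63.8 and 99.3 CPM in the knockdown, and differed by 0.93 in log2 (SE 0.26, edgeR adjusted p = 0.174), or 1.13 (SE 0.21, edgeR adjusted p = 0.00378) without control replicate 1. Thbs1, Thbs2 and Eln (elastin) also had non-overlapping groups, with log2 fold changes of 2.50, 1.74 and 1.77 (edgeR adjusted p = 0.184, 0.135 and 0.19). Without control replicate 1 these were 3.75, 1.78 and 1.53 (edgeR adjusted p = 0.000497, 0.0155 and 0.0357). Thbs1, with 45, 14 and 5 reads in the controls, reached the test only through the knockdown libraries in both fits.

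Of 12 collagen-degrading enzymes and inhibitors tested without control replicate 1, 8 were called higher and 1, Timp3, lower, against 16.5% and 16.1% of all genes. The 8 include Timp4, which had 1 and 0 reads in the remaining controls and 32 in control replicate 1, more than in any knockdown library. Mmp13, a collagenase, was at 0.46, 0.49 and 0.26 CPM in the controls and 1.99, 1.85 and 1.79 CPM in the knockdown. With 14, 17 and 8 reads in the controls, it reached the test only through the knockdown libraries in both fits. Control replicate 1 again lay with the other controls, and the log2 fold change was 2.21 (SE 0.39, edgeR adjusted p = 0.0585), or 2.32 (SE 0.43, edgeR adjusted p = 0.00329) without it. Mmp2, which degrades denatured collagen, and Timp1, an inhibitor of such enzymes, had non-overlapping groups and log2 fold changes of 1.43 and 2.23 (edgeR adjusted p = 0.275 and 0.284). Mrc2, a receptor that takes up collagen fragments, had groups that overlapped through control replicate 1 and differed by 1.75 in log2 (edgeR adjusted p = 0.299). Without control replicate 1 the values were 2.04, 4.14 and 2.89 (edgeR adjusted p = 0.00716, 0.000224 and 0.00177). Timp1 had 52, 5 and 7 reads in the controls, so in both fits it reached the test only through the knockdown libraries. Of 7 tested collagen receptors, 2 were called higher and 0 lower without control replicate 1, against 16.5% and 16.1% of all genes. They were Lair1 and Ddr1, at log2 fold changes of 0.85 and 1.82 (edgeR adjusted p = 0.0375 and 0.000793). With all libraries these were 0.77 and 0.75 (edgeR adjusted p = 0.264 and 0.626). Itga2 and Ddr2 did not pass in either fit.

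**Figure D5:**
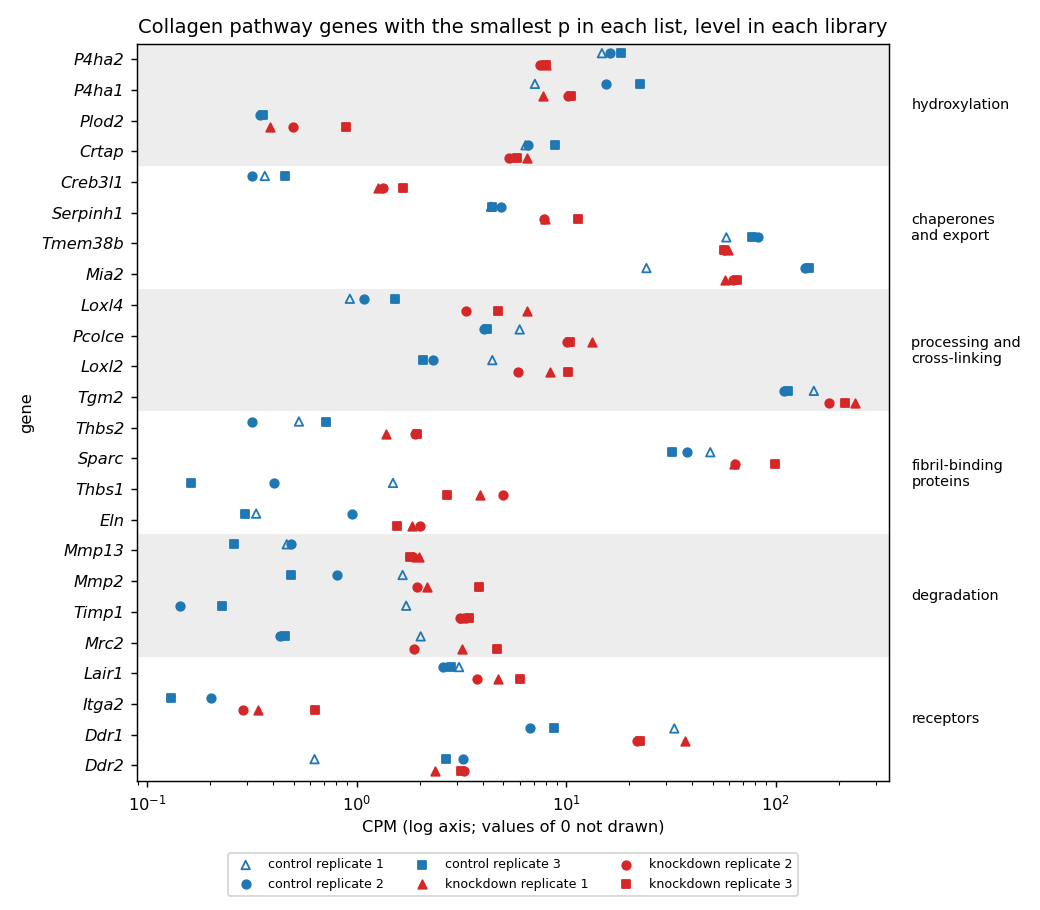
CPM on a log axis of the 4 genes with the smallest p in each of the 6 pathway lists, 1 symbol per library (open symbols for control replicate 1, values of 0 not drawn). The controls of P4ha2 lie above its knockdown libraries, and those of Creb3l1, Serpinh1, Loxl4 and Mmp13 lie below, with control replicate 1 near the other controls in each. Of these, Mmp13 reached the tests only through the knockdown libraries.

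Markers of the cells that could hold collagen RNA were summed in each library. With all 6 libraries edgeR called 0 genes of these lists. At an unadjusted p under 0.05, 1 stellate cell, 1 portal fibroblast, 2 macrophage and 2 cholangiocyte markers were higher and 2 hepatocyte markers lower, against 9.14% and 5.4% of all genes. The calls below without control replicate 1 stand against 16.5% of all genes called higher and 16.1% called lower.

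Stellate cell markers (10 genes) summed to 187 to 199 CPM in the controls and 213 to 231 CPM in the knockdown, but Reln alone made that gap. Without Reln the other 9 summed to 125, 144 and 135 CPM in the controls and 96.3, 124 and 133 CPM in the knockdown, which overlapped. Of the 10, 5 had a positive and 5 a negative log2 fold change without control replicate 1, with a median of 0.0010. In that fit Reln, Pdgfrb and Ngfr were called higher and 0 were called lower, and at an unadjusted p under 0.05 3 were higher and 3 lower.

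Hepatocyte markers (8 genes, Alb among them) summed to 110600 to 137900 CPM in the controls and 104100 to 116000 CPM in the knockdown, and 3 were called lower without control replicate 1. Portal fibroblast markers (8 genes) summed to 10.1 to 22.2 and 10.3 to 15.1 CPM, with Upk3b at 0 in every library and Thy1, Fbln2, Gli1, Mfap4 and Msln at 0 in at least 1. Entpd2 made most of these sums, at 9.58 to 20.8 CPM in the controls and 9.04 to 13.4 CPM in the knockdown. Cd34 was higher without overlap, at 0.49 to 0.52 against 0.97 to 1.09 CPM (log2 fold change 1.04, edgeR adjusted p = 0.247 with all libraries). Of the 3 tested in that fit, 2 had a positive and 1 a negative fold change. The 1 called higher without control replicate 1 was Fbln2, which had 21, 2 and 0 reads in the controls and stood higher in control replicate 1 than in any knockdown library. Macrophage markers (9 genes) summed to 180 to 399 and 308 to 346 CPM, with control replicate 1 the highest, and 6 were called higher without it. Cholangiocyte markers (7 genes, 4 of them tested) summed to 22.2 to 27.2 and 32.1 to 41.1 CPM, and endothelial markers (10 genes) to 189 to 246 and 198 to 250 CPM, with 2 called higher in each list without control replicate 1. Of the 2 cholangiocyte calls, Tspan8 had 20, 4 and 1 reads in the controls. With and without control replicate 1 it reached the test only through the knockdown libraries. The part of these cell types in the collagen differences was not tested.

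Measures of read composition also differed between the libraries. Mitochondrially encoded genes took 2.43%, 6.94% and 5.36% of gene reads in the controls against 3.48%, 4.44% and 4.61% after knockdown. Ambiguous reads made up 6.87%, 4.69% and 5.0% against 6.17%, 5.96% and 5.79%, and reads outside genes 2.48%, 5.66% and 5.12% against 4.37%, 4.18% and 4.85%. The groups without control replicate 1 did not overlap in any of the 3 measures, and their part in the calls of that fit was not tested.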

How the data were processed

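Liver RNA was sequenced as 3 control and 3 Atoh8 knockdown samples, and the labels gave each sample's group and number. The authors deposited 1 file of raw counts per sample. They also deposited FPKM values in 1 table, which divide counts by transcript length and library size. Per the submitters' processing notes, FastQC, Trim Galore, HISAT2 (given as 2.10), HTSeq and Cufflinks 2.2.1 were used with GRCm38 (mm10), without a stated role for each. The lines of the count files that name no gene held 2.48% to 5.66% of reads outside genes and 4.69% to 6.87% ambiguous reads, and stayed out of library sizes and tests. Of the 47729 genes, 47310 were found in the GENCODE M21 annotation, which gave coordinates, GC content and length.

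After filterByExpr and TMM scaling (factors 0.852 to 1.13), the quasi-likelihood test of edgeR 4.0.16 (R 4.3.3) compared the groups with no covariate. P-values were adjusted by Benjamini-Hochberg over all genes tested and called at 0.05. The procedure was also run on simulated counts with the same dispersion for every gene and no library that stood apart. Control replicate 1 stood apart in these data, so that run does not bear on its effect. Other fits used median ratio scaling, no filter, at least 1 CPM in 3 libraries, DESeq2 1.42.0, limma 3.58.1 on log2 FPKM (plus 1 or 0.1), with genes reaching FPKM 0.5 in 3 libraries or unfiltered, a replicate block, a loess offset (span 0.3) for GC content and length, and each library left out. Floors and counting intervals (95%, exact) cover counting error only.

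The members and gene lists were chosen with earlier results of these data known. Collagens with a mean of at least 1 CPM or called in either fit are given by library, and from each pathway list up to 4 genes with the smallest p were named. Col8a1 is given by library too, chosen after its values were seen. Pathway genes named beyond these, as members of a count, were chosen after their values were seen.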

Additional observations from a re-analysis of the deposited data

How the results depend on the processing

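Counts are given as genes higher and lower, then collagens, then pathway genes. With all 6 libraries they were 102 and 17, 0 and 0, 0 and 0. They were 213 and 34, 2 and 0, 3 and 0 without the filter on low counts, 590 and 221, 7 and 0, 10 and 1 with DESeq2, and 354 and 116, 4 and 0, 2 and 1 with the GC and length offset. Limma called 107 and 27, 0 and 0, 1 and 0 on log2(FPKM + 1), 68 and 21, 0 and 0, 0 and 0 on log2(FPKM + 0.1), and 40 and 7, 0 and 0, 0 and 0 on log2(FPKM + 1) without a filter. Median ratio size factors gave 100 and 18, 0 and 0, 0 and 0, and the filter of 1 CPM 115 and 20, 0 and 0, 0 and 0.

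Same-numbered samples deviated with correlations of 0.253, -0.082 and 0.29, so the numbers were not taken to pair the samples, and control replicate 2 correlated best with knockdown replicate 3. With the replicate number as a block the counts were 33 and 2, 0 and 0, 0 and 0, and with block and GC offset together 189 and 44, 2 and 0, 1 and 0.

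Leaving out 1 library at a time gave 0 to 2348 genes higher and 0 to 2284 lower, 0 to 15 collagens higher and 0 to 2 lower, and 0 to 27 pathway genes higher and 0 to 8 lower, where the upper ends come from leaving out control replicate 1. Without it, the GC offset gave 2365 and 1751, 13 and 2, 27 and 7, and DESeq2, added after seeing the data, 2477 and 2325, 15 and 2, 27 and 8. The log2 fold change of Col5a3, 0.11 with all libraries, ranged from -0.083 (without control replicate 1) to 0.25 with each library left out, and without control replicate 1 was -0.23 with the GC offset and -0.082 with DESeq2. That of Col18a1, -0.36, ranged from -0.56 to 0.11 (without control replicate 1), and without control replicate 1 was -0.099 with the GC offset and 0.11 with DESeq2. The cause was not tested. With each library left out, the mean Col1a1 to Col1a2 ratio of the knockdown was 1.60 to 2.02 times that of the controls in FPKM and 1.56 to 2.2 times in reads, highest without control replicate 1 on both scales. Genes with few reads, such as Col6a6 and Col20a1, are limited by counting error.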
